A study of Homo sapiens with 24 samples.

Results

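The genes described here make, bind and break down hyaluronan. The list holds 9 genes: the synthases *HAS1*, *HAS2* and *HAS3*, the binding genes *CD44*, *TNFAIP6* and *PTX3*, and the breakdown genes *HYAL1*, *HYAL2* and *CEMIP*. They were taken by symbol from the 25702 gene identifiers counted in each sample, and all 9 were found. The list was chosen in part on measured values, since *TNFAIP6* was known to be higher in samples with the hairpin. The hairpin comparisons are therefore given for the 9 genes as values without a test. Of the 9 genes, 7 passed the low-count filter and entered the fit of 13356 genes, and *HAS1* and *HYAL1* did not.

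RNA was sequenced from 24 samples of IMR90 cells, a line of human lung fibroblasts, at passage 23 to 28. Every sample carried a retroviral ER:HRAS(G12V) construct, an oncogenic RAS fused to the oestrogen receptor that 4-hydroxytamoxifen (4OHT) switches on, together with a second retrovirus. Growing samples carried MSCV vector without 4OHT, and shHMGA1 samples carried an MSCV miR30 hairpin against *HMGA1* without 4OHT. RIS (RAS-induced senescence) samples carried the vector and had 6 days of 4OHT, and RIS+shHMGA1 samples carried the hairpin and had the same 6 days. Each of the 4 groups had 6 biological replicates. The growing cells are therefore not free of the RAS construct, and the hairpin arms rest on a single hairpin.

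Hyaluronan is a long unbranched sugar polymer of the pericellular matrix. It is made at the plasma membrane by the HAS enzymes from UDP-glucuronic acid and UDP-N-acetylglucosamine, and it is extruded into the extracellular space as it grows. CD44 is its main cell surface receptor, and TNFAIP6 (TSG-6) and PTX3 help to crosslink it into matrix, TNFAIP6 by transferring heavy chains of inter-alpha-inhibitor onto the polymer. HYAL1 and HYAL2 are hyaluronidases, and CEMIP is needed for hyaluronan breakdown by skin and synovial fibroblasts. In fibroblasts these genes respond to growth factors and inflammatory cytokines, and *TNFAIP6* and *PTX3* were first known as genes induced by TNF and IL1.

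Promoter sequence is shown for the 3 genes whose counts moved most with 4OHT and in which a searched motif was found. The promoter table of RefSeq (GRCh38.p14) covers 250 bases before to 50 bases after each gene start and held 8 of the 9 genes, all but *HAS2*. Both strands were searched for AP-1 (TGANTCA), NF-kappaB (GGGAANTNC), C/EBP (TTGCNNAA) and the TATA box (TATAAA), motifs that were chosen after the values had been seen. The capitals mark the match in windows of 28 bases of the plus strand, written 5′ to 3′, and the gene starts of all 3 lie on the plus strand.
TNFAIP6, AP-1, chr2:151357453-151357480: ccaatgcaaaTGAGTCAgaggatttgct
PTX3, NF-kappaB, chr3:157436744-157436771: ccaaattcagGGGAACTCCcgttaccgc
PTX3, C/EBP, chr3:157436684-157436711: cggtttaataTTGTGCAActtccacatt
CEMIP, C/EBP, chr15:80779219-80779246: cccgccccacTTGGGCAAggcgggggcg
CEMIP, TATA, chr15:80779330-80779357: taaaagtggcTATAAAagcggcctctcg
The AP-1 match of *TNFAIP6* lies 129 to 123 bases before the gene start. In *PTX3* the NF-kappaB match lies 96 to 88 bases and the C/EBP match 156 to 149 bases before the start, and in *CEMIP* the C/EBP match lies 141 to 134 bases and the TATA match 30 to 25 bases before it. Both C/EBP matches are of the reverse complement. Among 35116 promoters of the table, 7.71% held the AP-1 letters, 4.92% the NF-kappaB letters, 10.5% the C/EBP letters and 11.5% the TATA letters. The matches overlap none of the other motifs searched. A match describes letters only and is no evidence of binding.

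The total count per sample lay between 8698070 and 23103424, with a median of 10604084. *HMGA1*, the target of the hairpin, was at 54.4 to 262 CPM (read counts scaled to the depth of the library) in the 12 hairpin samples and at 639 to 861 CPM in the 12 vector samples. Hairpin replicates 5 and 6 lay lowest, at 54.4 to 75.1 CPM over both hairpin groups. Hairpin replicates 1 to 4 lay at 98.7 to 143 CPM without 4OHT and at 197 to 262 CPM with it. Growing replicate 4 and RIS replicate 2 stood apart from their groups. For 8 cell cycle genes the summed level was 134 CPM in growing replicate 4 and 553 to 922 CPM in the other growing samples, while RIS replicate 2 had 729 CPM and the other RIS samples 95.9 to 132 CPM. For 6 genes of the senescence-associated secretory phenotype (SASP), growing replicate 4 had 73841 CPM and the other growing samples at most 9111 CPM, while RIS replicate 2 had 2278 CPM and the other RIS samples at least 24512 CPM. An exchange of the labels of these 2 samples cannot be told apart here from a difference in the cells themselves. Neither sample was moved to another group, so every value of RIS against growing with all samples rests on the labels as given, and changes are given with and without the 2 samples. They were recognised by their expression, so leaving them out widens the difference between RIS and growing samples by construction. The comparison of RIS+shHMGA1 with shHMGA1 samples contains neither of them and is given first.

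Fibroblast markers were high, with 10 of 10 tested and summed levels of 6249 to 45582 CPM. Their sum was 16628 to 23284 CPM in shHMGA1 samples and 6249 to 8506 CPM in RIS+shHMGA1 samples. There 8 of the 10 were called lower by the limits given below, beside 19.5% of all tested genes. The part of this shift in the changes described here was not tested. Endothelial markers (5 genes) summed to 70.4 to 125 CPM and 15.4 to 23.3 CPM in these groups, epithelial markers (7 genes) to 33.5 to 40.2 CPM and 38.3 to 43.5 CPM, and immune markers (6 genes) to 42.6 to 82.8 CPM and 55.9 to 75.02 CPM. Of these lists 1 endothelial, 2 epithelial and 1 immune gene passed the low-count filter. *PECAM1*, *CDH5*, *PTPRC* and *EPCAM* were at most 1.27, 0.42, 0.69 and 1.26 CPM in any of the 24 samples. Other members of the lists carried the sums above, so these genes do not stand for their lists. In bulk samples, fewer cells of a type and less RNA per cell cannot be told apart. CPM values were computed on library sizes normalised by TMM. This scaling trims the genes with extreme ratios between a sample and a reference sample, and those with extreme average levels. Against total counts as library sizes, TMM raised the log2 fold changes by 0.43 in RIS+shHMGA1 against shHMGA1 and by 0.30 in RIS+shHMGA1 against RIS. It raised the difference between the changes in hairpin and vector cells by 0.39. The values of RIS against growing and of shHMGA1 against growing moved by less than 0.1. The 10 genes with the most counts in a sample held 15.9 to 22.4% of its counts in RIS+shHMGA1 samples. In shHMGA1 samples this share was 6.02 to 6.74%. The part of these genes in the shift was not tested.

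*CD44* was the most abundant of the 9 genes per length of exon, and *HAS2* was next in 3 of the 4 groups. The level of *CD44* was 349 CPM per kilobase of exon in growing and 380 in shHMGA1 samples, and 290 and 212 in the RIS and RIS+shHMGA1 samples (means, n = 6). *HAS2* had 56.5 ± 15.4, 50.3 ± 2.65, 57.9 ± 14.4 and 84.1 ± 10.1 CPM per kilobase in the same order (SD, n = 6). *PTX3* had 52.2, 67.5, 30.4 and 29.1, so that it stood above *HAS2* in shHMGA1 samples. Without growing replicate 4 and RIS replicate 2 the growing and RIS means were 383 and 258 CPM per kilobase for *CD44*, 53.6 and 62.4 for *HAS2* and 60.1 and 26.3 for *PTX3*, which then stood above *HAS2* in growing samples too. The next genes per length were *HYAL2* with 14.5 to 16.1, *CEMIP* with 2.26 to 8.03 and *HAS3* with 3.22 to 3.53 CPM per kilobase over the 4 group means. *TNFAIP6* was the lowest of the 7 tested genes in growing, shHMGA1 and RIS samples (1.24, 2.29 and 2.05 CPM per kilobase) and stood above *CEMIP* and *HAS3* in RIS+shHMGA1 samples (9.28). Its growing and RIS means without the 2 samples were 0.776 and 2.38, and those of *CEMIP* were 9.30 and 2.00, so that *CEMIP* was the lowest in RIS samples. *HAS1* and *HYAL1* stayed under 0.2 CPM per kilobase in every group mean. The length used was the union of a gene's exons, and with the longest transcript the 4 means of *CD44* became 642, 700, 533 and 389 while its place as the highest was kept.

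**Figure D1:**
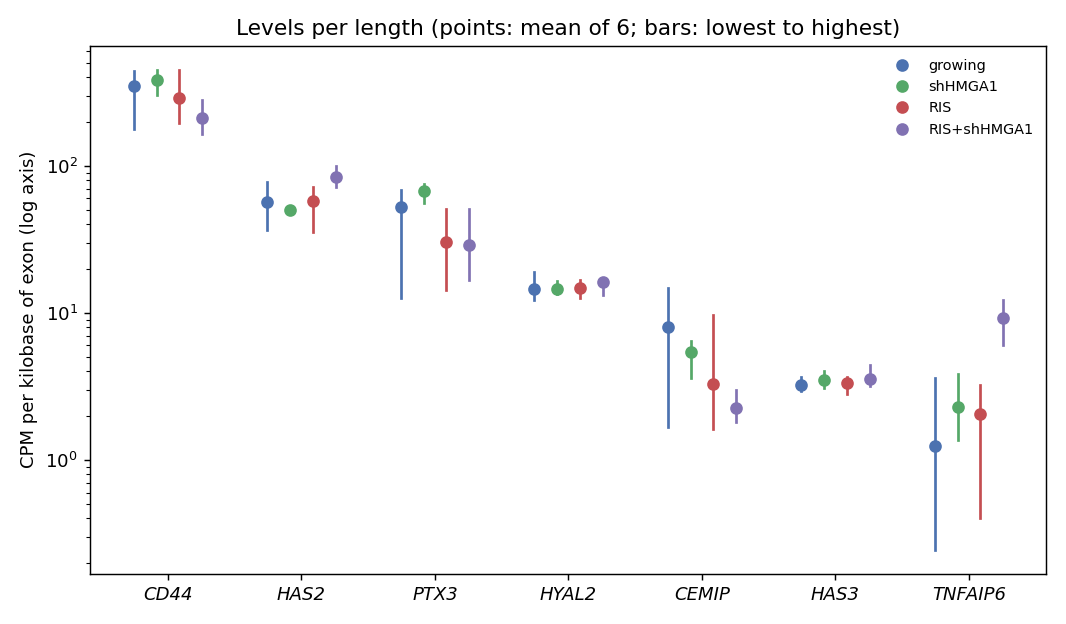
Mean level of the 7 tested genes in CPM per kilobase of exon on a log axis, for the 4 groups of 6 samples, with lines from the lowest to the highest sample. *CD44* is highest in every group (212 to 380) and *TNFAIP6* moves from 1.24 in growing to 9.28 in RIS+shHMGA1 samples.

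The first comparison asks how 4OHT changed these genes in cells with the hairpin, RIS+shHMGA1 against shHMGA1. *HAS2* and *TNFAIP6* were higher and *CD44* and *PTX3* lower at an adjusted p (FDR) under 0.01 (edgeR, quasi-likelihood fit, Benjamini-Hochberg) and a log2 fold change beyond 0.58 in either direction, the limits used for every call below. These are 4 of the 7 tested genes, where 39.1% of all tested genes passed, 19.6% higher and 19.5% lower. With a background of this size the count of 4 says nothing particular to the list. The call of *TNFAIP6* is also not independent of the choice of the gene, which used the same samples. With total counts as library sizes the called genes were *TNFAIP6* higher and *CD44*, *PTX3* and *CEMIP* lower, where 8.25% of all tested genes were higher and 39.8% lower. The groups did not overlap for 5 of the 7 genes, the 4 called and *CEMIP*, and over all tested genes this held for 43.4%. *HAS3* and *HYAL2* overlapped. In the same comparison the 6 SASP genes were all called higher and the 8 cell cycle genes all lower.

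The second comparison asks the same in cells with control vector, RIS against growing. With all samples, 0 of the 7 genes were called, and 0% of all tested genes passed in edgeR's test, where 4407 had an unadjusted p under 0.05. DESeq2 called 829 genes (6.21%), and limma's voom with sample weights called 6317 (47.3%), with 4 of the 7 among them. All 7 genes overlapped between the groups, as did all but 0.367% of the tested genes. Without growing replicate 4 and RIS replicate 2, 3 of the 7 genes were called, *TNFAIP6* higher and *PTX3* and *CEMIP* lower, where 39.7% of all tested genes passed, 19.2% higher and 20.5% lower.

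**Figure D2:**
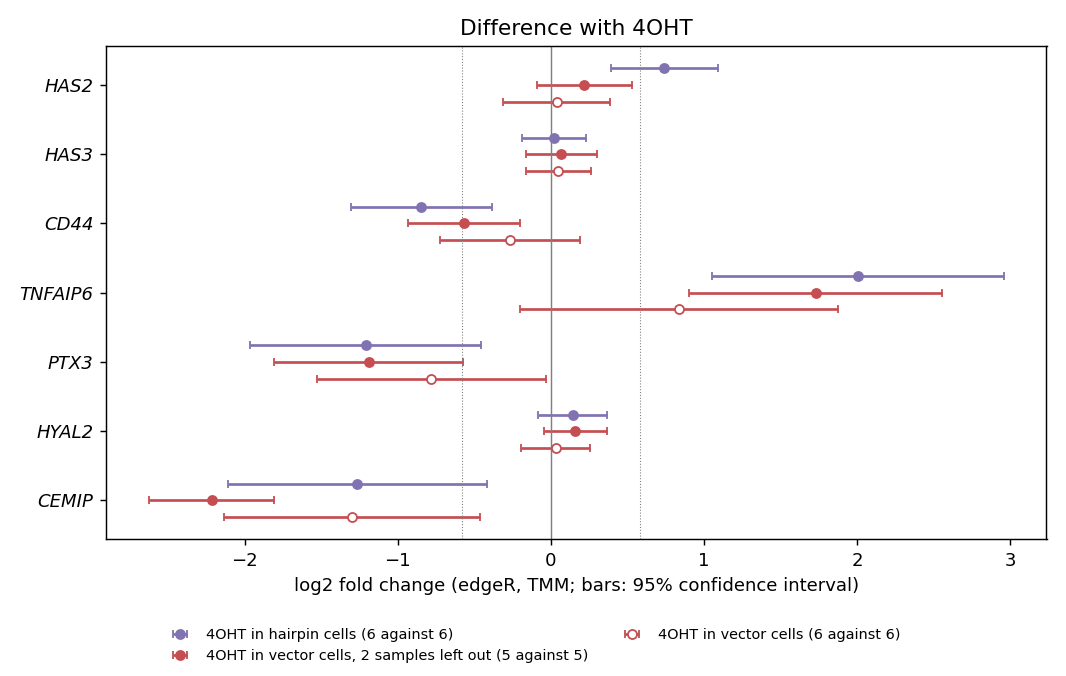
Log2 fold change with 4OHT for the 7 tested genes with 95% confidence intervals, for RIS+shHMGA1 against shHMGA1, for RIS against growing without growing replicate 4 and RIS replicate 2, and for RIS against growing with all samples (open). Dotted lines mark the 0.58 limit, and the interval of *TNFAIP6* in RIS+shHMGA1 against shHMGA1 runs from 1.05 to 2.96. *TNFAIP6* was chosen in part on these samples.

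*HAS2* (Entrez 3037) makes long hyaluronan and was the synthase gene with the highest RNA level in these fibroblasts. Per length of exon, *HAS2* was 91.9 to 96.9% of the summed level of the 3 synthases in the 24 samples (median 94.2%), *HAS3* 3.07 to 8.14% and *HAS1* 0 to 0.697%. In CPM, *HAS2* had 198, 213 and 226 (lowest, median and highest) in shHMGA1 samples and 303, 352 and 425 in RIS+shHMGA1 samples. Every RIS+shHMGA1 sample lay above every shHMGA1 sample. It rose 1.67-fold, with a log2 fold change of 0.74 ± 0.17 (SE, n = 6 each, 95% interval 0.39 to 1.09, adjusted p = 0.00119 in edgeR's test). Scaled by total counts, the log2 fold change was 0.31 (adjusted p = 0.0809 in edgeR's test) and the call was lost. Over all tested genes the median difference in log2 mean CPM was −0.45 with this scaling.

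In vector cells *HAS2* had 154, 228 and 328 CPM in growing samples and 151, 265 and 303 CPM in RIS samples. The groups overlapped over nearly their whole range. The log2 fold change was 0.04 ± 0.17 (SE), and without the 2 samples that stood apart it was 0.22 ± 0.15 (adjusted p = 0.21 in edgeR's test). The difference between the changes in hairpin and vector cells was 0.70 ± 0.24 on the log2 scale, with an unadjusted p of 0.00724 and an adjusted p of 0.426 in edgeR's test over all genes. Scaled by total counts it was 0.32 ± 0.22 (unadjusted p = 0.153, adjusted p = 0.271 in edgeR's test). Without the 2 samples it was 0.52 (adjusted p = 0.993 in edgeR's test), and none of the 3 values passed after adjustment. In this test of the interaction 0% of all tested genes were called with all samples, with 1371 genes at an unadjusted p under 0.05 and 5 called by DESeq2, and 0.00745% without the 2 samples.

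*HAS3* (Entrez 3038; chromosome 16, 69139556 to 69152622 in GRCh37, plus strand), which encodes a synthase of shorter polymers, was low and not called in either comparison. It lay between 15.9 and 21.01 CPM in shHMGA1 samples (median 17.3) and between 16.5 and 22.8 CPM in RIS+shHMGA1 samples (median 17.5), and between 14.7 and 19.2 CPM in growing and RIS samples together. The groups overlapped in both comparisons. The log2 fold change in hairpin cells was 0.02 ± 0.10, and its 95% interval of −0.19 to 0.23 lies within the 0.58 limit. In vector cells the change was 0.05 ± 0.10 with all samples and 0.07 without the 2 samples. Scaled by total counts, the difference in hairpin cells was −0.40 ± 0.13, of opposite sign. It passed the FDR (adjusted p = 0.00934 in edgeR's test) and missed the fold limit. Over all tested genes the median difference in log2 mean CPM was −0.45 with this scaling.

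*HAS1* (Entrez 3036; chromosome 19, 52216365 to 52227244 in GRCh37, minus strand) was almost silent. Over the 6 samples of a group it had 4 counts in growing and 24 in RIS samples, and 0 counts in shHMGA1 and 8 in RIS+shHMGA1 samples, and no sample had more than 9. Growing replicate 4 held 3 of the 4 growing counts, and RIS replicate 2 was the 1 RIS sample at 0, so that without them growing samples had 1 count and RIS samples 24. The 0 in shHMGA1 samples allows up to 3 counts of 68184358 over the group, or 0.0440 CPM, which covers counting error only. At least 1 count was present in 5 of 6 RIS samples, in 5 of 6 RIS+shHMGA1 samples and in 2 of 6 growing samples. An exact permutation test of log2 CPM (two-sided) gave p = 0.0152 for RIS+shHMGA1 against shHMGA1 and p = 0.0563 for RIS against growing, and adjusted over the 4 tests of *HAS1* and *HYAL1* these were 0.0606 and 0.113 in the exact test. Neither difference passed 0.05 after adjustment. Without the 2 samples the exact p for RIS against growing was 0.00794, unadjusted and the smallest that 5 samples against 5 can give, and leaving them out favours a difference by construction.

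**Figure D3:**
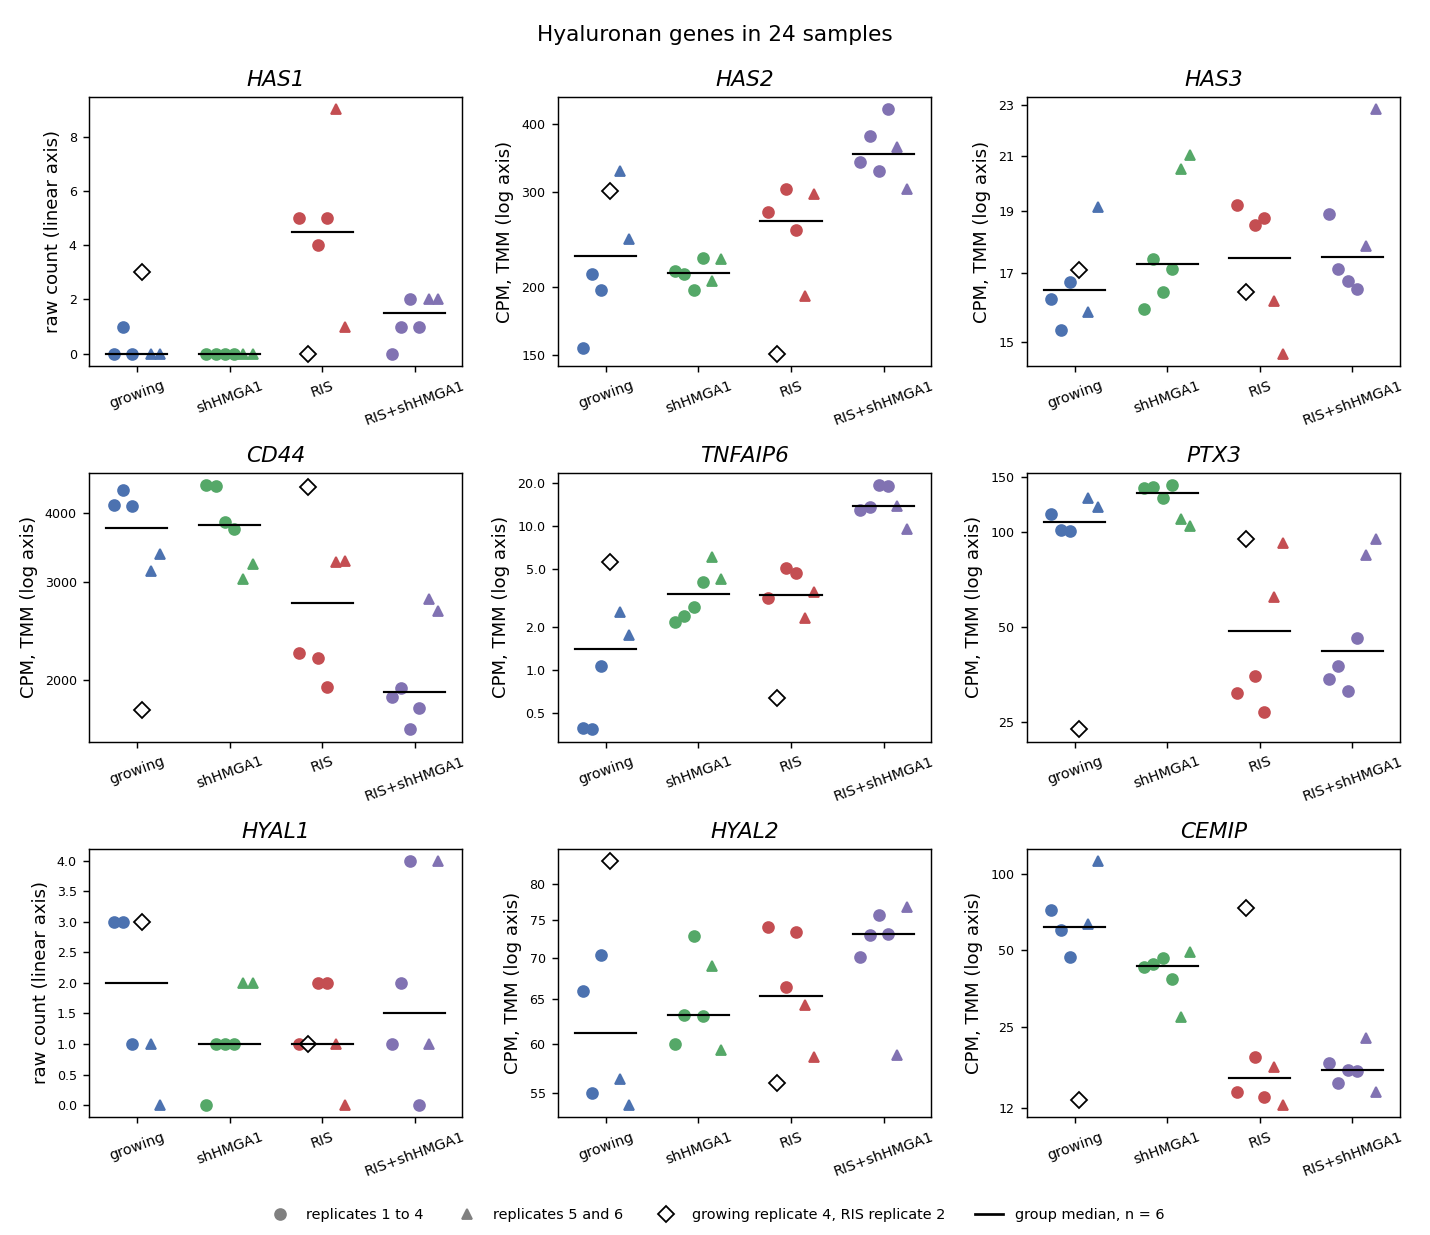
Level of each of the 9 genes in the 24 samples, in CPM on a log axis for 7 genes and as counts on a linear axis for *HAS1* and *HYAL1*. Circles are replicates 1 to 4, triangles replicates 5 and 6, white diamonds growing replicate 4 and RIS replicate 2, and bars group medians. For *TNFAIP6* the 6 RIS+shHMGA1 samples lie at 9.53 to 19.2 CPM, above the other 18 samples.

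*CD44* (Entrez 960; chromosome 11, 35160429 to 35253949 in GRCh37, plus strand), the receptor, fell with 4OHT in hairpin cells. It had 3034, 3795 and 4481 CPM in shHMGA1 samples (lowest, median and highest) and 1633, 1902 and 2802 CPM in RIS+shHMGA1 samples. Every RIS+shHMGA1 sample lay below every shHMGA1 sample, and within the 4OHT group replicates 5 and 6 (2802 and 2659 CPM) lay above the other 4 (1633 to 1938 CPM). The decrease was 1.80-fold, with a log2 fold change of −0.85 ± 0.22 (SE, 95% interval −1.31 to −0.39, adjusted p = 0.00288 in edgeR's test). The call was lost without replicate number 1 (log2 fold change −0.77, adjusted p = 0.0188 in edgeR's test) and without number 3 (−0.78, adjusted p = 0.0174 in edgeR's test).

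In vector cells *CD44* had 1766, 3747 and 4387 CPM in growing samples and 1943, 2751 and 4447 CPM in RIS samples. The lowest growing value belonged to replicate 4 and the highest RIS value to replicate 2, so that the groups overlapped fully. RIS replicates 5 and 6 (3265 and 3274 CPM) lay within the growing range without replicate 4, 3139 to 4387 CPM. The log2 fold change was −0.27 ± 0.22 with all samples. Without the 2 samples it was −0.57 ± 0.18 (SE), which passed the FDR (adjusted p = 0.00765 in edgeR's test) and missed the fold limit. The difference between hairpin and vector cells in this response was −0.58 ± 0.31 with all samples (adjusted p = 0.426 in edgeR's test), −0.28 without the 2 and −0.93 with total counts as library sizes (adjusted p = 0.123 in edgeR's test).

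*TNFAIP6* (Entrez 7130; chromosome 2, 152214106 to 152236560 in GRCh37, plus strand), the gene with the AP-1 letters shown above, had the widest change of the 7 genes with 4OHT in hairpin cells. It had 2.16, 3.39 and 6.09 CPM in shHMGA1 samples (26 to 99 counts) and 9.53, 13.7 and 19.2 CPM in RIS+shHMGA1 samples (96 to 221 counts). Every RIS+shHMGA1 sample lay above every shHMGA1 sample. It rose 4.01-fold with 4OHT, with a log2 fold change of 2.00 ± 0.46 (SE, 95% interval 1.05 to 2.96, adjusted p = 0.00121 in edgeR's test). This comparison shares its samples with the hairpin comparisons for which the gene was chosen. Its p-value is therefore not independent of that choice. The same holds for the growing and RIS samples compared below. Without replicate number 3 the log2 fold change was 1.84 and the adjusted p 0.0103 in edgeR's test, just over the limit.

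In vector cells *TNFAIP6* had 0.387, 1.40 and 5.66 CPM in growing samples (5 to 44 counts) and 0.635, 3.32 and 5.13 CPM in RIS samples (7 to 64 counts). The highest growing value was that of replicate 4 and the lowest RIS value that of replicate 2. On the log2 scale the change was 0.84 ± 0.50 (SE, adjusted p = 0.249 in edgeR's test). Without the 2 samples, growing samples reached 0.387 to 2.52 CPM and RIS samples 2.28 to 5.13 CPM, which still overlapped. It then rose 3.31-fold, with a log2 fold change of 1.73 ± 0.40 (adjusted p = 0.000683 in edgeR's test).

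*PTX3* (Entrez 5806; chromosome 3, 157154639 to 157161422 in GRCh37, plus strand), which encodes a secreted pentraxin and whose promoter holds the NF-kappaB letters, fell with 4OHT in hairpin cells, opposite to *TNFAIP6*. It had 105, 133 and 141 CPM in shHMGA1 samples and 31.4, 41.9 and 95.1 CPM in RIS+shHMGA1 samples. The groups did not overlap, but replicates 5 and 6 with 4OHT (85.1 and 95.1 CPM) lay near the shHMGA1 samples while the other 4 lay at 31.4 to 46.2 CPM. The decrease was 2.31-fold, with a log2 fold change of −1.21 ± 0.37 (SE, 95% interval −1.97 to −0.45, adjusted p = 0.00719 in edgeR's test). The log2 fold change was −1.09 without replicate number 1, 2 or 3, and the call was then lost (adjusted p = 0.0328, 0.0279 and 0.0345 in edgeR's test).

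In vector cells *PTX3* had 23.7, 108 and 129 CPM in growing samples and 26.8, 48.7 and 95.4 CPM in RIS samples. Growing replicate 4 was the lowest of its group and RIS replicate 2 the highest of its own. On the log2 scale the change was −0.78 ± 0.36 (SE, adjusted p = 0.136 in edgeR's test). Without the 2 samples, growing samples lay at 101 to 129 CPM and RIS samples at 26.8 to 92.8 CPM, without overlap, as for 35.2% of all tested genes. The decrease was then 2.28-fold, with a log2 fold change of −1.19 ± 0.30 (adjusted p = 0.00143 in edgeR's test), and RIS replicates 5 and 6 (62.4 and 92.8 CPM) were again the highest. The difference in response between hairpin and vector cells was −0.43 ± 0.51 with all samples (adjusted p = 0.633 in edgeR's test), −0.02 without the 2 and −0.75 with total counts as library sizes (adjusted p = 0.333 in edgeR's test).

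Replicates 5 and 6 thus stood above the other 4OHT samples of their group for *CD44* and *PTX3* in hairpin cells, and in vector cells once RIS replicate 2 was left out. Their summed SASP level was 63853 and 60327 CPM in RIS+shHMGA1 samples, where replicates 1 to 4 had 92217 to 108217 CPM. In RIS samples it was 24512 and 36750 CPM, where replicates 1, 3 and 4 had 44888 to 53670 CPM. *HMGA1* was also lowest in replicates 5 and 6 of the hairpin groups, but not of the RIS samples (786 and 704 CPM). The part of these differences in the *CD44* and *PTX3* levels was not tested. In a fit without numbers 5 and 6, chosen after seeing the data, the log2 fold changes in RIS+shHMGA1 against shHMGA1 were −1.22 for *CD44* (adjusted p = 0.0142), −1.90 for *PTX3* (0.0142), 2.49 for *TNFAIP6* (0.0159), 0.77 for *HAS2* (0.0163) and −1.39 for *CEMIP* (0.039), all adjusted p from edgeR's test. In that fit 0% of all tested genes were called, so that these calls were lost with those of every other gene.

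*CEMIP* (Entrez 57214; chromosome 15, 81071684 to 81244117 in GRCh37, plus strand), the breakdown gene whose promoter holds the TATA letters, was lower with 4OHT in both backgrounds, with a call that depended on the samples. It had 27.3, 43.5 and 49.1 CPM in shHMGA1 samples and 13.9, 16.9 and 22.7 CPM in RIS+shHMGA1 samples. The groups did not overlap. Its log2 fold change was −1.26 ± 0.41 (SE, 95% interval −2.11 to −0.42), and the adjusted p of 0.011 in edgeR's test missed the limit by little. It was 0.00239 with total counts as library sizes and 1.45e-06 when growing replicate 4 and RIS replicate 2, which enter this contrast only through the common estimate of the spread, were left out. In that last fit 44.4% of all tested genes were called.

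In vector cells *CEMIP* had 12.9, 61.7 and 112 CPM in growing samples and 12.3, 15.7 and 73.3 CPM in RIS samples. Growing replicate 4 lay among the RIS samples and RIS replicate 2 among the growing samples. On the log2 scale the change was −1.30 ± 0.40 (SE, adjusted p = 0.036 in edgeR's test). Without the 2 samples, growing samples lay at 46.8 to 112 CPM and RIS samples at 12.3 to 19.1 CPM, without overlap. The decrease was then 4.64-fold, with a log2 fold change of −2.22 ± 0.20 (adjusted p = 1.24e-09 in edgeR's test). It was called without replicate number 2 alone (−2.02, adjusted p = 0.000385 in edgeR's test) and without number 4 alone (−1.37, adjusted p = 0.00983 in edgeR's test). The difference in response between hairpin and vector cells was 0.04 ± 0.57 with all samples (adjusted p = 0.975 in edgeR's test), and 0.95 ± 0.26 without the 2 (unadjusted p = 0.00131, adjusted p = 0.383 in edgeR's test). With total counts as library sizes it was −0.35 (adjusted p = 0.677 in edgeR's test), of opposite sign.

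*HYAL2* (Entrez 8692; chromosome 3, 50355221 to 50360213 in GRCh37, minus strand), a hyaluronidase anchored to the membrane, was not called in either comparison. It lay between 59.4 and 72.9 CPM in shHMGA1 samples (median 63.2) and between 58.9 and 76.7 CPM in RIS+shHMGA1 samples (median 73.0). The groups overlapped. Its log2 fold change was 0.14 ± 0.11, and its 95% interval of −0.08 to 0.37 lies within the 0.58 limit. Scaled by total counts it was −0.29 ± 0.09, of opposite sign. This passed the FDR (adjusted p = 0.00837 in edgeR's test) and missed the fold limit. Over all tested genes the median difference in log2 mean CPM was −0.45 with this scaling. In vector cells, growing samples lay at 53.8 to 83.3 CPM and RIS samples at 55.96 to 74.1 CPM, with a log2 fold change of 0.03 ± 0.11, and 0.16 without the 2 samples.

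*HYAL1* (Entrez 3373; chromosome 3, 50337321 to 50349812 in GRCh37, minus strand), a lysosomal hyaluronidase, was at the limit of detection. Its summed counts were 11 and 7 in growing and RIS samples and 7 and 12 in shHMGA1 and RIS+shHMGA1 samples, with at most 4 in a sample. The exact permutation test gave p = 0.184 for RIS+shHMGA1 against shHMGA1 and p = 0.643 for RIS against growing, or 0.245 and 0.643 adjusted over the 4 exact tests. Without growing replicate 4 and RIS replicate 2 the summed counts were 8 and 6 in growing and RIS samples (exact p = 0.873). At this depth no difference was detectable.

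The third comparison describes the hairpin, without and with 4OHT. In shHMGA1 against growing samples 0.27% of all tested genes were called, and with 4OHT, in RIS+shHMGA1 against RIS samples, 2.55%. Because the rule used these comparisons, nothing is read from the values of the 9 genes beyond their size. *TNFAIP6* had 0.387, 1.40 and 5.66 CPM in growing and 2.16, 3.39 and 6.09 CPM in shHMGA1 samples. It had 0.635, 3.32 and 5.13 CPM in RIS and 9.53, 13.7 and 19.2 CPM in RIS+shHMGA1 samples. The groups overlapped without 4OHT and did not with 4OHT, where each hairpin sample lay above each vector sample, and over all tested genes the groups did not overlap for 1.3% without and 13.2% with 4OHT. Over all 12 samples, vector samples had a median of 2.40 CPM and hairpin samples a median of 7.81 CPM.

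The log2 difference of *TNFAIP6* with the hairpin was 1.01 ± 0.50 (SE) without 4OHT and 2.18 ± 0.47 with 4OHT. Without growing replicate 4 and RIS replicate 2 these were 1.70 ± 0.38 and 1.96 ± 0.32. The gap between the pair of differences was 1.17 ± 0.68 with all samples and 0.27 ± 0.52 without the 2, so that most of it came with these samples. It was 0.74 ± 0.63 with total counts as library sizes. With limma's voom and sample weights it was −0.25, of opposite sign. *TNFAIP6* had 5.66 CPM in growing replicate 4, above the other growing samples, and 0.635 CPM in RIS replicate 2, below the other RIS samples.

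*HAS2* differed by −0.17 ± 0.17 with the hairpin without 4OHT and by 0.54 ± 0.17 with 4OHT (−0.09 ± 0.14 and 0.43 ± 0.15 without the 2 samples). *CD44* differed by 0.12 ± 0.22 and −0.45 ± 0.22 (−0.01 ± 0.17 and −0.29 ± 0.17), and *PTX3* by 0.37 ± 0.36 and −0.06 ± 0.36 (0.17 ± 0.28 and 0.15 ± 0.29). *CEMIP* differed by −0.57 ± 0.40 and −0.53 ± 0.41 (−0.78 ± 0.18 and 0.17 ± 0.19), so that its value with 4OHT changed sign when RIS replicate 2 was left out. *HAS3* and *HYAL2* differed by 0.01 to 0.12 in either hairpin comparison. With total counts as library sizes the differences with 4OHT were 0.25 for *HAS2*, −0.75 for *CD44*, −0.34 for *PTX3*, −0.88 for *CEMIP*, −0.20 for *HAS3* and −0.18 for *HYAL2*, and those without 4OHT were −0.07, 0.17, 0.40, −0.53, 0.20 and 0.11 in the same order. Over all tested genes the median difference in log2 mean CPM with this scaling was −0.37 with 4OHT and 0.05 without. These hairpin comparisons share the growing, shHMGA1, RIS and RIS+shHMGA1 samples with the 4OHT comparisons above, and the values are set side by side only.

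**Figure D4:**
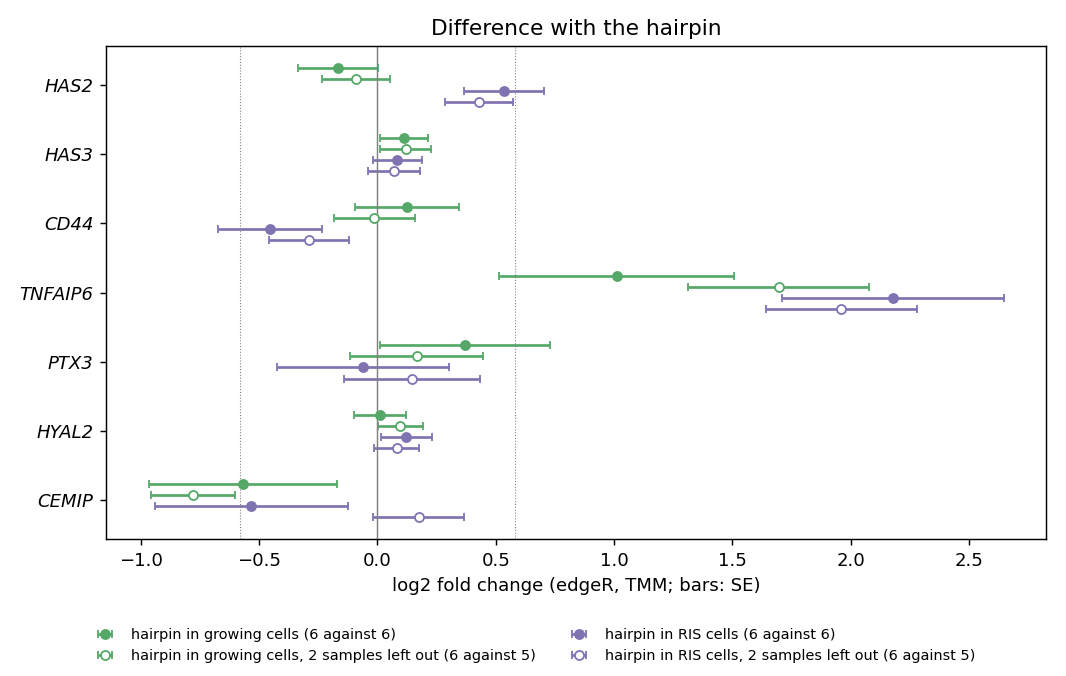
Log2 difference with the hairpin for the 7 tested genes, with standard errors, without 4OHT (shHMGA1 against growing) and with 4OHT (RIS+shHMGA1 against RIS). Filled points use all samples and open points leave out growing replicate 4 and RIS replicate 2, and the *TNFAIP6* values are 1.01 and 2.18 with all samples and 1.70 and 1.96 without the 2.

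Other genes of the pathway were taken from 4 lists of 46 genes in all, of which 45 were matched to an identifier and 29 were tested. The lists cover the sugar precursors of hyaluronan, other breakdown enzymes, and other receptors and their membrane linkers. The last list holds the proteoglycans, link proteins and inter-alpha-inhibitor family that organise the polymer. In RIS+shHMGA1 against shHMGA1 samples 10 of the 29 were called higher and 6 lower, where 19.6% of all tested genes were called higher and 19.5% lower. Their median log2 fold change was −0.03 against −0.02 over all tested genes. With total counts as library sizes 3 were higher and 12 lower, where 8.25% of all tested genes were higher and 39.8% lower. In RIS against growing samples 0 of the 29 were called with all samples, and 9 higher and 5 lower without growing replicate 4 and RIS replicate 2, where 19.2% of all tested genes were higher and 20.5% lower.

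Of 14 genes that supply UDP-sugars, 6 were called higher in hairpin cells and 0 lower, beside the 19.6% and 19.5% of all tested genes, with a median log2 fold change of 0.36. *GFPT2*, which encodes an isoform of the rate-limiting enzyme of the hexosamine pathway, had 29.9, 36.1 and 50.5 CPM in shHMGA1 samples and 165, 191 and 213 CPM in RIS+shHMGA1 samples, without overlap. Its log2 fold change was 2.33 ± 0.44 (adjusted p = 0.000359 in edgeR's test), and in vector cells 1.55 with all samples and 2.51 without the 2. *UAP1L1*, related to the enzyme that forms UDP-N-acetylglucosamine, rose by 1.03 ± 0.17 on the log2 scale, and *GNPNAT1*, an acetyltransferase of the same route, by 0.97 ± 0.25 (adjusted p = 0.00022 and 0.00273 in edgeR's test). Vector cells without the 2 samples also had 6 of 14 called higher and 0 lower, beside 19.2% and 20.5% of all tested genes, with *HK2* at 0.90, *UAP1L1* at 0.81 and *PGM1* at 0.73. With all samples these 3 were at 0.77, 0.55 and 0.41 and not called. With total counts as library sizes, 2 of the 14 were higher and 3 lower in hairpin cells and the median was −0.07. Over all tested genes 8.25% were higher and 39.8% lower with this scaling. The median difference in log2 mean CPM over all tested genes was −0.45 there. The 3 lower ones were *UGDH* (−0.76), which encodes the enzyme that makes UDP-glucuronic acid, *UAP1* (−0.76) and *PGM2* (−0.67), named because the count is small. *GFPT2* (1.89) and *UAP1L1* (0.59) kept their calls there, and *GNPNAT1* (0.52), *HK2* (0.46) and *PGM1* (0.34) lost theirs.

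Of the proteoglycans, link proteins and genes of the inter-alpha-inhibitor family, 4 of 14 were tested. No gene of the inter-alpha-inhibitor family passed the low-count filter. All 4 tested genes were called in hairpin cells, 2 in each direction, beside 39.1% of all tested genes. *VCAN*, which encodes versican, the large proteoglycan that binds hyaluronan, had 147, 179 and 251 CPM in shHMGA1 samples and 13.1, 14.1 and 22.0 CPM in RIS+shHMGA1 samples. The groups lay far apart, and the log2 fold change was −3.59 ± 0.64 (adjusted p = 0.000264 in edgeR's test). *HAPLN1*, the link protein that fixes such proteoglycans to hyaluronan, fell by 4.07 ± 0.77 on the log2 scale. Its level went from 1.97 to 7.55 CPM to at most 0.60 CPM. The RIS+shHMGA1 samples lay near the floor, and *HAPLN1* passed the low-count filter through other groups. The size of its decrease therefore rests on few counts. The related *HAPLN4* and *HAPLN3* rose by 2.20 ± 0.46 and 0.97 ± 0.17, and *HAPLN3* lost its call with total counts (0.54). In vector cells without the 2 samples the log2 fold changes were −2.98 for *VCAN*, −3.49 for *HAPLN1* and 2.00 for *HAPLN4*, and with all samples they were −1.66, −1.56 and 1.45 and not called.

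*VCAN* was the 1 gene of these lists called with the hairpin under 4OHT, RIS+shHMGA1 against RIS, beside 2.55% of all tested genes. It had 25.6, 54.2 and 361 CPM in RIS samples, where replicate 2 was the highest, and all RIS+shHMGA1 samples lay below the RIS samples. Its log2 fold change was −2.69 ± 0.61 (adjusted p = 0.00899 in edgeR's test). Without growing replicate 4 and RIS replicate 2 it was −1.62 (adjusted p = 0.000435 in edgeR's test), and *HAPLN4* was then also lower (−0.95, adjusted p = 0.00845 in edgeR's test), in a fit that called 12.5% of all tested genes. Without replicate number 2 alone *VCAN* was −1.63 and not called (adjusted p = 0.0849 in edgeR's test), and the call was also lost without number 1, 3, 5 or 6 (−2.88 to −2.73, adjusted p = 0.0245 to 0.0361 in edgeR's test).

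Among other receptors and linkers 6 of 10 were tested. In hairpin cells 2 were called lower and 0 higher, beside 19.5% and 19.6% of all tested genes. *HMMR*, which encodes a hyaluronan-binding protein that also works on the mitotic spindle, had 51.6, 63.8 and 114 CPM in shHMGA1 and 8.1, 9.0 and 13.6 CPM in RIS+shHMGA1 samples (log2 fold change −2.81 ± 0.48). The 8 cell cycle genes were lower in the same comparison, 8 of 8 called, and their part in the change of *HMMR* was not tested. *EZR*, which links CD44 to actin, had 106, 121 and 130 CPM and 16.7, 19.1 and 24.5 CPM (−2.58 ± 0.47). Of other breakdown enzymes 5 of 8 were tested, and *GUSB*, a lysosomal glucuronidase, fell by 1.22 ± 0.20 and *CEMIP2*, a cell surface relative of *CEMIP*, by 0.87 ± 0.27, while *HEXA*, which encodes a lysosomal glycosidase, rose by 0.66 ± 0.16. With total counts as library sizes the decreases of *HMMR*, *EZR*, *GUSB* and *CEMIP2* kept their calls and *HEXA* (0.23) lost its call. The linkers *MSN* (−0.84) and *RDX* (−0.73) and the receptor *LAYN* (−0.91) were newly called lower. So 5 of the 6 receptors and linkers were lower there, beside 39.8% of all tested genes. The median difference in log2 mean CPM over all tested genes was −0.45 with this scaling. In vector cells without the 2 samples *HEXA* (0.64) was higher and *GUSB* (−0.97), *HMMR* (−2.75) and *EZR* (−2.45) lower. With all samples these values were 0.39, −0.61, −1.71 and −1.36 and none was called.

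**Figure D5:**
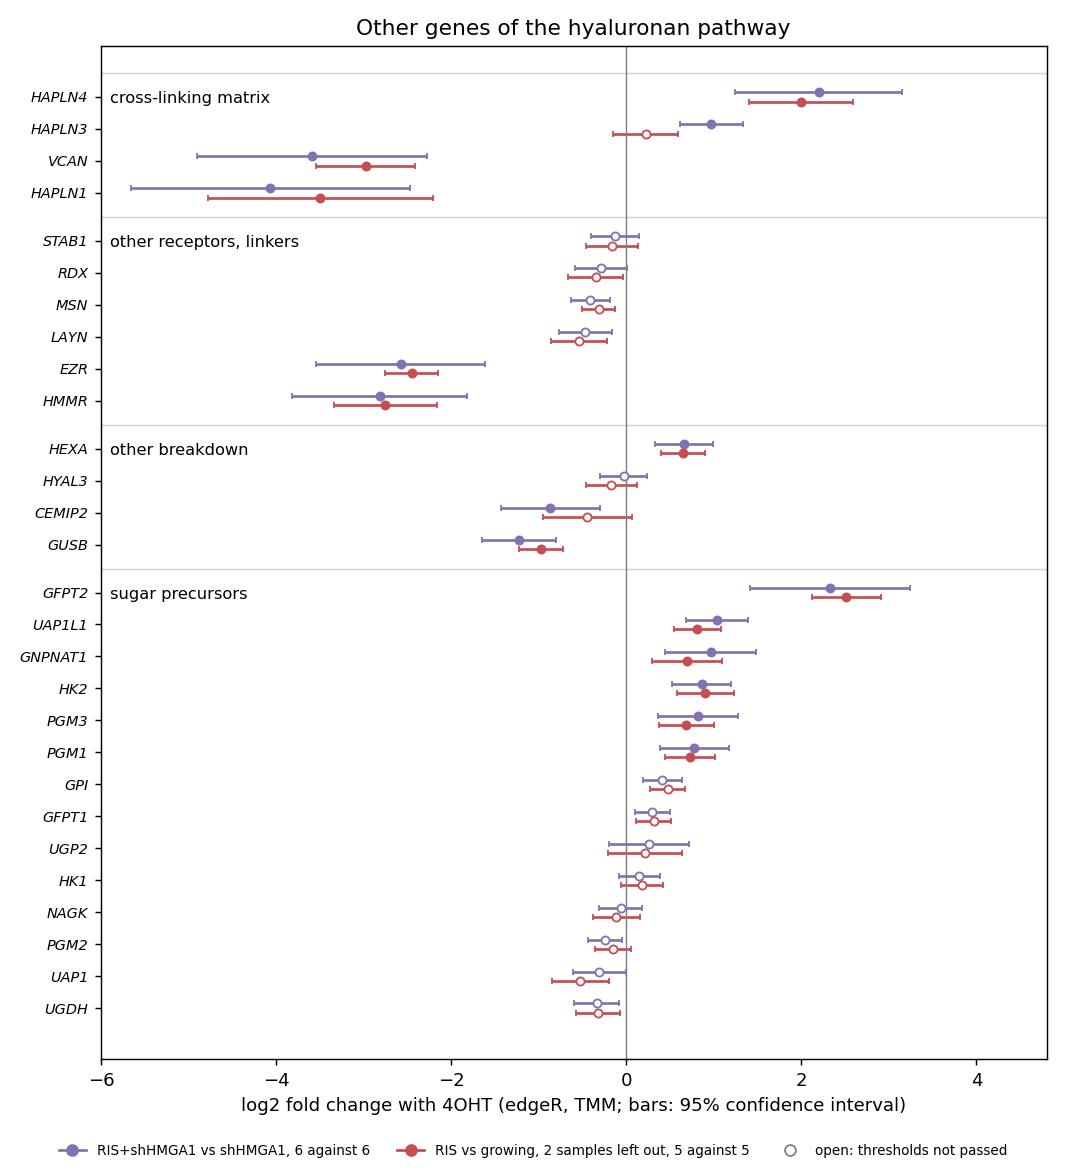
Log2 fold change with 4OHT for 28 other tested genes of the hyaluronan pathway in 4 lists, with 95% confidence intervals, for RIS+shHMGA1 against shHMGA1 (purple) and RIS against growing without growing replicate 4 and RIS replicate 2 (red). Open points did not pass the limits, and the values run from −4.07 for *HAPLN1* to 2.33 for *GFPT2* in hairpin cells. *HAPLN1* lay near the floor in RIS+shHMGA1 samples.

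For each tested gene, the 3 genes with the most similar pattern were those with the smallest root mean square difference of centred log2 CPM over the 24 samples, out of 10936 genes with an average log2 CPM of at least 2. For *TNFAIP6* they were *PLA2G4A*, which encodes a cytosolic phospholipase A2 (0.456), *IL24*, a cytokine gene (0.555), and *LACTB2* (0.584), all at a larger distance than for any other gene described here. For *HAS2* they were *SSR1* (0.149), *TYW3* (0.150) and *DCPH1* (0.151), and for *CD44* *TGFBR2*, a TGF-beta receptor gene (0.112), and *ABCC4* (0.127), with an identifier without a symbol between them (0.121). For *PTX3* they included *SERPINE2* (0.266) and *LOC728392* (0.299), and for *CEMIP* they were *FOXN3* (0.313), *SYNE1* (0.318) and *ARID5B* (0.326). *HAS3* was nearest to *FIP1L1* (0.0983), *RNF8* (0.127) and *EIF3F* (0.128), and *HYAL2* to *GPS1* (0.0908), *POLDIP2* (0.0924) and *EIF3F* (0.0926), where genes of small range lie close to each other. The samples of a group share their treatment, so that these distances describe the pattern over the groups.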

How the data were processed

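The authors mapped reads with STAR 2.5.0b to hg19 after adapter removal (cutadapt 1.10.0), as the submitters' processing notes and the study's methods give them, and counted reads per gene with Rsubread. The deposited values are raw counts per Entrez identifier, without normalisation. The annotation, version and strand setting of the counting are not given in the sources used here, so reads of *HAS2*, *HAS3*, *CD44*, *PTX3* and *CEMIP*, which share exon bases with genes on the opposite strand, and of *HYAL2*, which shares them with *TUSC2*, may include reads of the other gene.

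Of 25702 identifiers, 23696 had a symbol in a RefSeq table. Groups and replicate numbers came from the sample labels, which call the samples biological replicates. In R 4.3.3, edgeR 4.0.16 was used with filterByExpr by group, TMM and a quasi-likelihood fit of all 24 samples without a block, with calls at an FDR below 0.01 and a log2 fold change beyond 0.58 in size, the limits of the study's methods. log2 CPM had a prior count of 2. *HAS1* and *HYAL1* were compared by exact permutation tests (scipy 1.17.1). The fit was tested on simulated counts with a smaller spread than these data and without samples that stood apart. That test therefore does not cover the conditions of RIS against growing. The 9 genes, the other lists and the tests were chosen with earlier results of these data known. The rule named the 9 genes, and of the other 4 lists the 5 largest increases and decreases among the called genes of each contrast, others by count unless 5 or fewer. *HEXA*, *CEMIP2*, *LAYN*, *MSN* and *RDX* were named under that exception for small counts. Some genes that the rule would name are not reported here. Positions are of GRCh37 and 1-based, promoter windows of GRCh38.p14. Intervals and floors cover counting error only where they rest on counts of a group.

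Alternatives were DESeq2 1.42.0, RLE factors, no filter, the replicate number as a block, limma 3.58.1 voom with sample weights, each replicate number left out in turn, and the fit without growing replicate 4 and RIS replicate 2. Total counts as library sizes, the fit without numbers 5 and 6, and the exact tests and levels per length without the 2 samples were chosen after seeing the data.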

Additional observations from a re-analysis of the deposited data

Results flagged for a closer look

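For 7 genes in 4 groups of 6 samples, the distance of an extreme sample from the next one in log2 CPM, as a share of the group's whole range, passed Dixon's limit of 0.625 in 4 of 28 tests, where chance, at 1 in 20, gives about 1.4. *CD44* in growing replicate 4 was the lowest of its group, with a ratio of 0.632 (1766 CPM). *PTX3* in the same sample was also the lowest, with a ratio of 0.854 (23.7 CPM). *CEMIP* in RIS replicate 2 was the highest of its group, with a ratio of 0.756 (73.3 CPM). *HYAL2* in RIS+shHMGA1 replicate 5 was the lowest, with a ratio of 0.664 (58.9 CPM). The first 3 lie in the samples whose cell cycle and SASP genes were at the level of the other 4OHT state, and the cause was not tested.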

How the results depend on the processing

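In RIS+shHMGA1 against shHMGA1, *HAS2* and *TNFAIP6* passed in 12, *CD44* in 11, *PTX3* in 10 and *CEMIP* in 6 of 14 alternatives. In RIS against growing, *CEMIP* passed in 4, *TNFAIP6* and *PTX3* in 2 and *CD44* in 1. Of the log2 fold changes of all named genes under the alternatives, 763 were counted as the same and 57 newly passed. Another 38 no longer passed, 7 without a test moved beyond the error and 17 with a test changed sign. Most of the 7 also changed sign. Values without a test that moved within the error were counted as the same, also where their sign turned. The cause was not tested. Depth limits *HAS1* and *HYAL1*.

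Among values without a test, signs turned beyond the error as follows. In RIS+shHMGA1 against RIS, *HAS3* turned to −0.201 with total counts and −0.093 without numbers 5 and 6, and *HYAL2* to −0.178 with total counts. The median difference in log2 mean CPM over all tested genes was −0.37 with total counts in this comparison. *CEMIP* there turned to 0.175 without growing replicate 4 and RIS replicate 2 and 0.213 without number 2. The gap of *TNFAIP6* between its hairpin differences turned to −0.254 with voom. Signs of tested values turned for the following differences. In RIS against growing they were those of *HAS2* with total counts (−0.016) and without replicate numbers 1, 3 and 6 (−0.089, −0.082 and −0.019, with a range of −0.089 to 0.219 over samples left out), of *HAS3* with total counts (−0.0055) and of *HYAL2* with total counts (−0.0085) and without numbers 5 and 6 (−0.015). In RIS+shHMGA1 against shHMGA1 they were those of *HAS3* with total counts (−0.402) and without number 1 or 6 (range −0.034 to 0.083) and of *HYAL2* with total counts (−0.293). The median over all tested genes was −0.45 there with total counts. *HMGA2* in shHMGA1 against growing turned to 0.018 without numbers 5 and 6. The interaction of *CEMIP* turned to −0.349 with total counts, −0.705 without numbers 5 and 6, and −0.156, −0.248 and −0.252 without number 1, 5 or 6 (range −0.252 to 0.953 over samples left out).

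Counts of called genes moved as follows. In RIS against growing, the listed genes called went from 0 to 3 without growing replicate 4 and RIS replicate 2, to 4 with voom and to 0 to 1 over the numbers left out, and all genes called went from 0 to 829 with DESeq2, 1 with the replicate block, 5331 without the 2 samples, 6317 with voom, 28 with total counts and 0 to 2083 over the numbers left out. In RIS+shHMGA1 against shHMGA1 the listed genes went from 4 to 0 without numbers 5 and 6 and to 1 to 5 over samples left out, and all genes from 5220 to 0 and to 3037 to 5959 over samples left out. In shHMGA1 against growing all genes went from 36 to 99 with DESeq2, 23 without the filter, 348 without the 2 samples, 845 with voom, 5 without numbers 5 and 6 and 5 to 25 over the numbers left out. In RIS+shHMGA1 against RIS all genes went from 341 to 1573 with DESeq2, 189 without the filter, 1637 with the block, 1677 without the 2 samples, 1856 with voom, 2783 with total counts, 15 without numbers 5 and 6 and 14 to 2205 over the numbers left out. For the interaction, all genes went from 0 to 5 with DESeq2, 1 without the 2 samples, 7 with voom, 2 with total counts and 0 to 1 over the numbers left out.

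The replicate numbers were not taken as pairs, since the labels do not say that a number marks a shared batch and no comparison had every same-numbered pair correlated over 0.1. The deviations of same-numbered samples from their group means had a correlation over 0.1 in 18 of 24 pairs (range −0.594 to 0.828), and a sample's best match in another group had its number in 24 of 72 cases, where 12 would be expected if the number played no part. Both ends of that range came from RIS against growing, whose group means include growing replicate 4 and RIS replicate 2. Pairs of different numbers ran from −0.932 to 0.835 there. The count of best matches is a hint of some sharing within numbers. The replicate block changed no call of the 9 genes in the 4OHT comparisons and gave 5667 called genes in RIS+shHMGA1 against shHMGA1 and 1637 in RIS+shHMGA1 against RIS, where the fit without it gave 341.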
